A study of Mus musculus with 6 samples.

Results

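Nanog and Hdac1 met at 6325 places in the genome of mouse embryonic stem cells, and these places are described here as pairs of peaks. A pair was chosen by position alone: it holds a Nanog peak and an Hdac1 peak on chromosomes 1 to 19 whose summits were each other's nearest and lay at most 200 bp apart. The pairs take up 6325 of the 16833 Nanog peaks and 6325 of the 16398 Hdac1 peaks on these chromosomes, out of 70533 peaks in the 5 lists of the series. All peaks come from ChIP-seq, in which cross-linked chromatin is precipitated with a protein and sequenced. The cells were of the J1 line, contained the bacterial biotin ligase BirA and grew in medium with serum and leukemia inhibitory factor. Nanog was pulled down through biotin with streptavidin-conjugated beads, and so was Tgif2, whereas Hdac1, Tgif1 and Smad3 were precipitated with antibodies. Each factor had 1 library and 1 peak list, so no value below has a replicate check and none was tested between libraries. The method of precipitation and the factor cannot be told apart between Nanog and Hdac1. Intervals are 95% intervals of counting error over peaks or tags, and neither peaks nor tags are biological replicates.

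Nanog is a homeodomain transcription factor that helps to keep embryonic stem cells pluripotent. Hdac1 is a histone deacetylase and the catalytic subunit of the Sin3, NuRD and CoREST corepressor complexes. It has no sequence-specific DNA binding of its own and reaches chromatin through partner proteins, and complexes of deacetylases with Nanog have been described in these cells. Tgif1 and its paralog Tgif2 are homeodomain corepressors that bind Smad proteins and recruit deacetylases, and Smad3 carries the TGF-beta and Activin signal to chromatin. The comparisons asked how strongly the factor and the enzyme were each found at a shared place, and whether their balance differed where a Tgif peak lay over the pair.

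Summits of a pair lay at most 200 bp apart by rule. With median widths of 717 bp for Nanog and 974 bp for Hdac1 peaks, overlap was largely fixed by that limit too. Within it, most summits were close. The median distance between the Nanog and the Hdac1 summit was 39 bp (quartiles 17 and 73), and 3825 pairs (60.5%) had summits at most 50 bp apart. The 2 peaks overlapped in all 6325 pairs. The Nanog peak lay wholly inside the Hdac1 peak in 3612 pairs (57.1%), and the Hdac1 peak lay wholly inside the Nanog peak in 463 (7.32%). At the limit of 200 bp, 86 pairs with summits 181 to 200 bp apart had medians of 30 Nanog and 50 Hdac1 tags and a median log2 ratio of -0.52, on the scale explained below. The 106 mutually nearest summits 201 to 220 bp apart, which were not taken as pairs, had medians of 31.5 and 49 tags and a ratio of -0.27.

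By tags, paired peaks stood out more in the Nanog list than in the Hdac1 list, and by fold enrichment about equally in both. Paired Nanog peaks held a median of 42 tags (quartiles 26 and 78), against 25 tags (19 and 38) in the 10508 Nanog peaks that were not paired. They made up 37.6% of the Nanog list on these chromosomes (36.8 to 38.3) and 52.7% of its tags. Paired Hdac1 peaks held a median of 50 tags (37 and 70), against 46 tags (36 and 61) in the 10073 that were not paired, and made up 38.6% of the peaks (37.8 to 39.3) and 41.5% of the tags. The peak caller's median fold enrichment was 26.3 in paired and 22.0 in other Nanog peaks, and 12.1 in paired and 9.83 in other Hdac1 peaks. Paired Nanog peaks were wider than the other Nanog peaks, with a median of 717 bp against 593 bp, while paired Hdac1 peaks were narrower than the other Hdac1 peaks, with 974 bp against 1077 bp.

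The Tgif paralogs divided the Nanog list by pairing but not the Hdac1 list in the same way. A Tgif1 peak overlapped 62.8% of paired Nanog peaks (61.6 to 64.0) and 20.6% of the others (19.9 to 21.4). A Tgif2 peak overlapped 62.4% of paired Nanog peaks (61.2 to 63.6) and 22.5% of the others (21.7 to 23.3). Among Hdac1 peaks the order was the opposite: Tgif1 overlapped 63.4% of paired peaks (62.2 to 64.5) and 65.7% of the others (64.7 to 66.6), and Tgif2 overlapped 63.1% (61.9 to 64.2) and 72.0% (71.1 to 72.9). Smad3 peaks lay over 13.2% of paired Nanog peaks (12.3 to 14.0) and 2.44% of the others (2.16 to 2.75), and over 13.2% of paired Hdac1 peaks (12.4 to 14.1) and 1.26% of the others (1.06 to 1.50). Of the peaks left without a partner, 1524 Nanog peaks and 1132 Hdac1 peaks still overlapped a peak of the other list.

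To set the factors side by side, the tags of each peak were divided by the sum of tags in their own list on chromosomes 1 to 19, which was 802659 for Nanog and 899871 for Hdac1. The median pair had 52.3 Nanog and 55.6 Hdac1 tags per 1000000 listed tags, and the median log2 ratio of Nanog to Hdac1 was -0.06 (quartiles -0.68 and 0.66). That ratio reflects the choice of divisor, since with the tags of paired peaks only as the divisor the median was -0.41. The total depth of the libraries is unknown, so a ratio of 0 on this scale does not mean equal occupancy. Ratios ran from -3.53 to 3.59, with a standard deviation over pairs of 1.03. The counting error of a single ratio was 0.31 for the median pair if tags are taken as independent counts, so the spread between pairs was wider than counting error gives.

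Pairs that leaned at least 2-fold to either side were in the minority, with more toward Nanog than toward Hdac1 on this scale. By size alone, 1074 pairs were at least 2-fold toward Nanog, which is 17.0% of all pairs (16.1 to 17.9). At least 2-fold toward Hdac1 were 941 pairs, or 14.9% (14.0 to 15.8), and the remaining 4310 lay between. At least 4-fold toward Nanog were 236 pairs (3.73%), and at least 4-fold toward Hdac1 were 109 (1.72%). This split depended on the measure: with tags per bp of peak width 24.9% were at least 2-fold toward Nanog and 0.40% toward Hdac1, and with the tags of paired peaks as divisor 10.6% and 26.1%. Among the 1805 pairs with at least 50 tags in both peaks it was 28.9% and 1.72%. These last shares are partly set by the cut. Pairs at least 2-fold toward Hdac1 had a median of 21 Nanog tags, so most fell below it. Those at least 2-fold toward Nanog had a median of 49 Hdac1 tags.

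**Figure D1:**
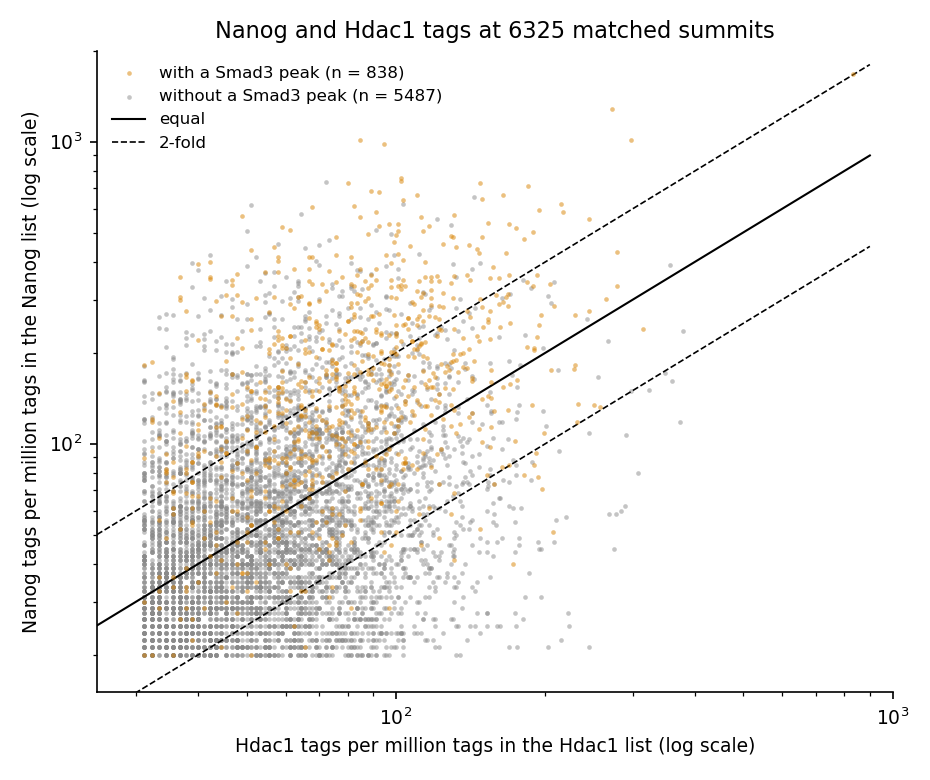
Nanog tags per 1000000 listed tags (vertical, log scale) against Hdac1 tags per 1000000 listed tags (horizontal, log scale) for each of the 6325 pairs, orange with and grey without an overlapping Smad3 peak. The solid line marks equal values and the dashed lines a 2-fold difference; 1074 pairs lie on or above the upper and 941 on or below the lower dashed line, and the points spread farther along the Nanog axis.

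The lean went mostly with Nanog tags, which varied more than Hdac1 tags in these lists. The 10th and 90th percentiles of tags were 19 and 138 for Nanog, a range of 7.26-fold, against 31 and 95 for Hdac1, a range of 3.06-fold. Pairs at least 2-fold toward Nanog had medians of 133 Nanog and 49 Hdac1 tags, those between had 41 and 47, and those at least 2-fold toward Hdac1 had 21 and 70. The ratio was therefore ranked much like Nanog tags across the 6325 pairs (Spearman's rho 0.82) and only weakly opposite to Hdac1 tags (rho -0.19). In both relations the same tag number enters both sides. The lists also stop at different depths, at 16 tags for Nanog and 28 for Hdac1, so that a pair with the median of 50 Hdac1 tags could not have had a ratio under -1.48.

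Nanog peaks with many tags tended to sit on Hdac1 peaks with many tags, but the agreement of ranks was loose. Tags ranked like the peak caller's fold enrichment in Nanog peaks (rho 0.72), but not in Hdac1 peaks (rho -0.0056). Across the 6325 pairs the rank correlation of Nanog with Hdac1 tags was 0.36, as a description of 2 libraries without a p-value. It was 0.41 for the peak caller's fold enrichment and 0.42 for tags per bp. Within 5 bins of Hdac1 width of 1265 pairs each it was 0.30, 0.37, 0.49, 0.50 and 0.43 from the narrowest to the widest, below the value of all pairs in the first bin only. Of the 632 pairs in the top 10% by Nanog tags, 205 (32.4%) were also in the top 10% by Hdac1 tags, and of the 63 in the top 1% only 6 were (9.52%). When each list of tags was cut into 5 equal bins, 524 of the 1265 pairs in the highest Nanog bin (41.4%) fell in the highest Hdac1 bin and 93 (7.35%) in the lowest. In the lowest Nanog bin 131 pairs (10.4%) fell in the highest Hdac1 bin and 394 (31.1%) in the lowest.

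Nanog peaks were the narrower ones at the same place. The median Nanog peak of a pair spanned 717 bp (quartiles 579 and 909) and the median Hdac1 peak 974 bp (805 and 1290). Pair by pair the median log2 ratio of Nanog to Hdac1 width was -0.44, which is 0.739 times the Hdac1 width, and the Nanog peak was the wider one in 1139 pairs (18.0%). Widths of partners were only loosely related (rho 0.31).

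Extra tags took a different form in the 2 lists. Hdac1 tags followed Hdac1 width closely (rho 0.81) and their density hardly varied: the 10th and 90th percentiles were 38.2 and 69.3 tags per kb, a 1.81-fold range. Nanog tags followed Nanog width less closely (rho 0.66) and the density percentiles were 33.2 and 147 tags per kb, a 4.42-fold range. A high Hdac1 count was therefore mainly a wide peak, and a high Nanog count was a wide and a dense one. Per bp the median log2 ratio of Nanog to Hdac1 was 0.42, above 0, where that of whole peaks was -0.06. From the narrowest to the widest of 5 bins of Hdac1 width the median tag ratio was 0.16, 0.12, 0.02, -0.17 and -0.71, whereas the ratio per bp showed no such slope, at 0.38, 0.45, 0.43, 0.47 and 0.40.

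**Figure D2:**
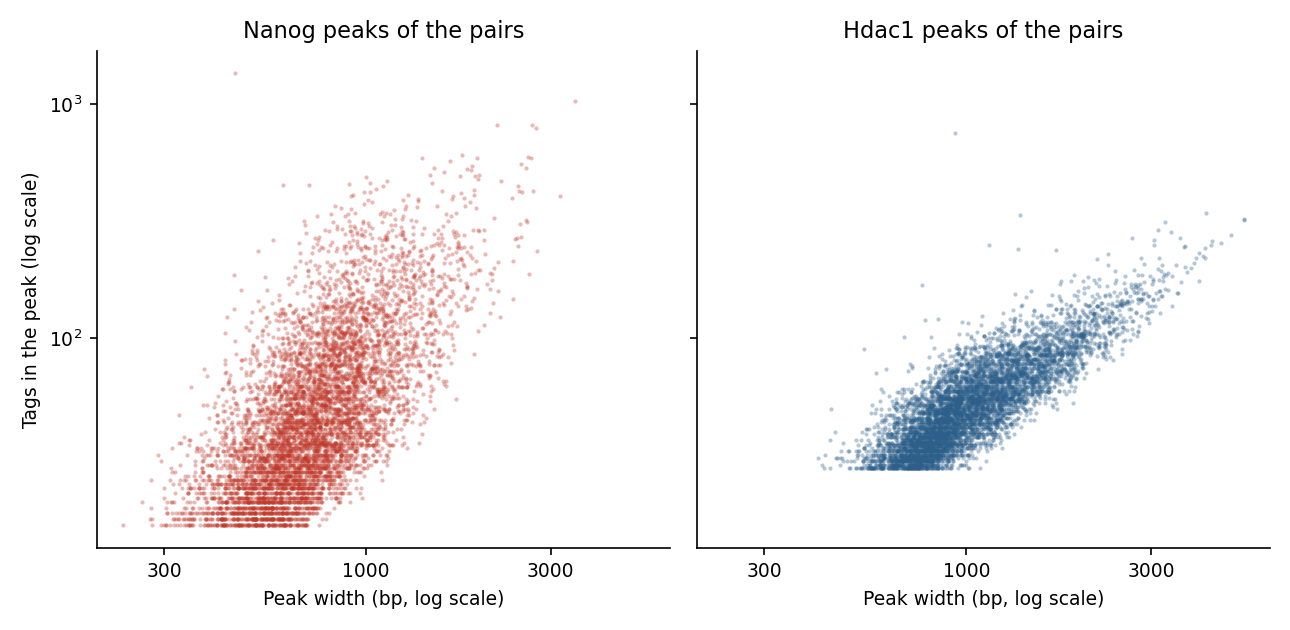
Tags in a peak (vertical, log scale) against peak width in bp (horizontal, log scale) for the Nanog peaks on the left and the Hdac1 peaks on the right of the 6325 pairs, 1 point per peak. Hdac1 points form a narrow band (rho 0.81), and Nanog points form a broad one (rho 0.66); the 1349 Nanog and 748 Hdac1 tags that stand above all others belong to 1 pair.

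A Tgif peak overlapped most pairs. Both paralogs overlapped 3366 pairs (53.2%), Tgif1 alone 647 (10.2%), Tgif2 alone 625 (9.88%), and neither 1687 (26.7%). An overlap was counted when a Tgif peak shared at least 1 bp with the stretch covered by the 2 peaks together. A wider stretch had more room for such an overlap. Pairs with both paralogs had medians of 48 Nanog and 62 Hdac1 tags, against 36 and 38 in pairs with neither, which is 1.33 times the Nanog and 1.63 times the Hdac1 tags. With a single paralog the Nanog and Hdac1 medians differed less from those of pairs with neither. Pairs with Tgif1 alone had medians of 45 Nanog and 46 Hdac1 tags, and those with Tgif2 alone had 37 and 46.

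The ratio lay slightly toward Hdac1 where both paralogs or Tgif2 overlapped, but not where Tgif1 did so alone. The median log2 ratio was -0.18 with both paralogs (quartiles -0.89 and 0.62) and 0.06 with neither (-0.47 and 0.71), a shift of -0.24. With Tgif1 alone it was 0.16 and with Tgif2 alone -0.10, on either side of the 0.06 with neither. With Tgif1 overlapping at all it was -0.12, against 0.01 without, a shift of -0.13 that was negative on 15 of 19 chromosomes. With Tgif2 it was -0.17, against 0.07 without, a shift of -0.24 that was negative on 18 of 19. The quartiles of these groups overlapped widely. At the Hdac1 end, 21.0% of pairs with both paralogs (19.7 to 22.4) were at least 2-fold toward Hdac1, against 5.81% of pairs with neither (4.79 to 7.03) and 14.9% of all pairs. Such a lean needs at least 36 Hdac1 tags, given the fewest tags in the Nanog list, and 91.1% of pairs with both paralogs but 57.7% of pairs with neither had as many. Among those that could lean so far the shares were 23.1% (21.6 to 24.6) with both and 10.1% (8.33 to 12.1) with neither. This cut does not make the classes alike, since the room to lean toward Hdac1 grows with Hdac1 tags. Quartiles of Hdac1 tags were 47 and 84 over all pairs with both paralogs and 32 and 47 over those with neither. At the Nanog end the shares were 16.7% (15.5 to 18.0) with both and 17.3% (15.6 to 19.2) with neither, against 17.0% of all pairs. Among the pairs with the 50 Nanog tags needed there, they were 34.9% (32.6 to 37.2) and 52.0% (47.8 to 56.1). The shares among pairs that could lean so far were chosen once the values had been looked at.

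These shifts went with peak width. The median Hdac1 peak was 1116.5 bp wide with both paralogs and 839 bp with neither, and the median Nanog peak 767 bp and 654 bp. The Tgif1 share of pairs was 39.8% in the bin of narrowest Hdac1 peaks and 86.0% in that of the widest. Since any overlap with the covered stretch counted, a wider Hdac1 peak could meet a Tgif peak more easily by rule. How much of the rise this gives was not tested. Averaged over the 5 bins of Hdac1 width, a comparison added after the data were seen, the shift of both paralogs against neither was 0.01, from bins between -0.18 and 0.10, that of Tgif1 0.06 and that of Tgif2 -0.07. Per bp of peak the shifts were -0.06, -0.01 and -0.09. With a Tgif summit within 200 bp of the middle of the pair in place of an overlap, they were 0, 0.03 and -0.03, and by fold enrichment 0.01, 0.07 and -0.05. Within 5 bins of Nanog tags, which enter the ratio themselves, they were -0.55, -0.44 and -0.45. Within bins of the width of the whole stretch they were -0.12, -0.03 and -0.17, and within bins of Hdac1 tags -0.12, 0.01 and -0.20. The Tgif2 shift was thus below 0 in each of these, between -0.03 and -0.45, whereas the Tgif1 shift and that of both against neither lay near 0 or changed sign in several.

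Pairs with a single paralog differed by which paralog it was, a comparison added after the data were seen. The median log2 ratio was 0.16 with Tgif1 alone (quartiles -0.43 and 0.82) and -0.10 with Tgif2 alone (-0.68 and 0.55), a difference of 0.26. It was positive on 14 of 19 chromosomes and ranged from -0.45 to 0.81 over them, where the smaller class held as few as 11 pairs. The difference stood in the Nanog tags, with 45 and 37, while the Hdac1 medians were both 46 and the Hdac1 widths 927 and 905 bp. In the first 4 bins of Hdac1 width it was 0.18, 0.27, 0.40 and 0.48, and in the widest -0.02. Per bp it was 0.19. Within 5 bins of Nanog tags, which also enter the ratio, it was 0.07. A Smad3 peak overlapped 13.8% of pairs with Tgif1 alone (11.3 to 16.6) and 6.72% of those with Tgif2 alone (5.01 to 8.96), and without the pairs that carry Smad3 the difference was 0.21. Tgif2 and Nanog share the precipitation with streptavidin beads, and Tgif1 and Hdac1 the use of antibodies. The part of the method in this difference was not tested.

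**Figure D3:**
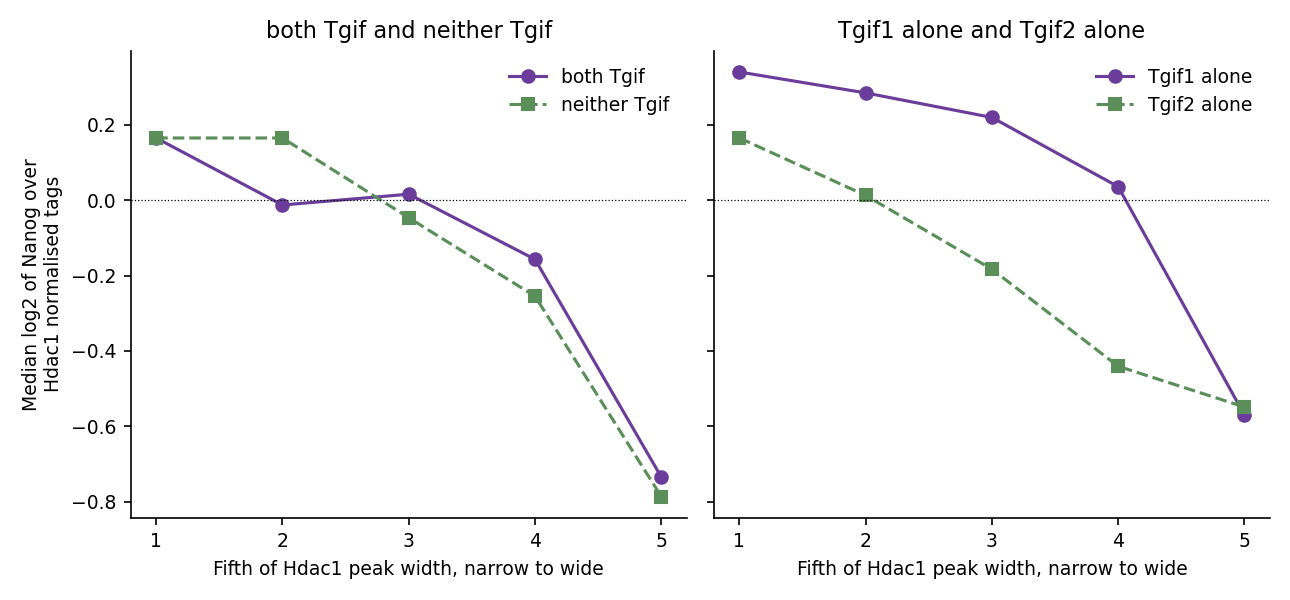
Median log2 ratio of Nanog to Hdac1 normalised tags (vertical) in 5 equal bins of Hdac1 peak width from narrow to wide (horizontal), for pairs with both and with neither Tgif paralog on the left and with Tgif1 alone and Tgif2 alone on the right. On the left the lines cross, between 0.16 in the narrowest and -0.73 with both or -0.79 with neither in the widest bin; on the right Tgif1 alone lies above Tgif2 alone in the first 4 bins.

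Where a Tgif peak was present, its tags followed Hdac1 tags more closely than Nanog tags. Across the 4013 pairs with Tgif1, the tags of the strongest overlapping Tgif1 peak had a rank correlation of 0.58 with Hdac1 tags and 0.18 with Nanog tags. Across the 3991 pairs with Tgif2 the values were 0.52 and 0.12. From the lowest to the highest of 5 bins of Tgif1 tags, the median Nanog tags were 39, 43, 46, 54 and 60 and the median Hdac1 tags 42, 50, 58, 70 and 88. The median log2 ratio over the same bins was -0.0050, -0.05, -0.08, -0.16 and -0.38. For Tgif2 the lowest and the highest bin had ratios of -0.00013 and -0.45. Hdac1 width went along with Tgif tags as well, with rho 0.48 for Tgif1 and 0.44 for Tgif2, against 0.24 and 0.20 for Nanog width. Hdac1 tags themselves followed Hdac1 width (rho 0.81), and the part of width in these relations was not tested.

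**Figure D4:**
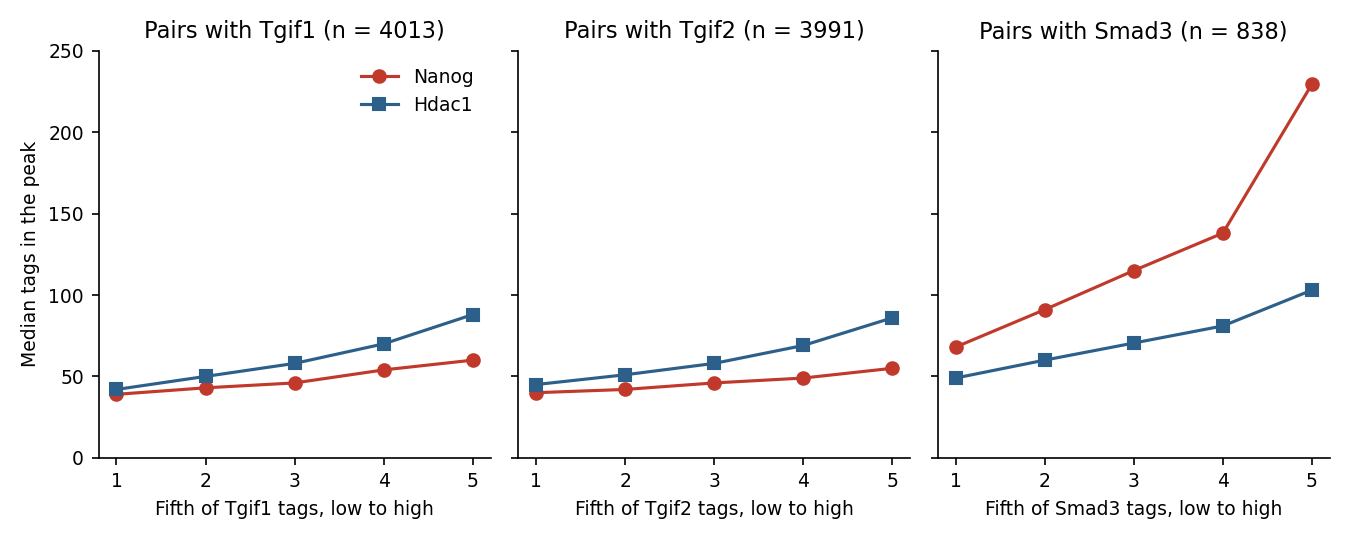
Median tags in the Nanog peak (red circles) and in the Hdac1 peak (blue squares) of the pairs (vertical) across 5 equal bins of the tags of the overlapping Tgif1, Tgif2 or Smad3 peak (horizontal, low to high). Tags are as deposited and not scaled between the lists. Hdac1 climbs more than Nanog with Tgif1 and Tgif2, to 88 and 86 tags in the highest bin against 60 and 55 for Nanog, and Nanog climbs more with Smad3, to 229.5 against 103 for Hdac1.

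The median ratio differed more with and without a Smad3 peak than with and without either Tgif paralog. The lists differ in length, with 1199 Smad3 peaks on chromosomes 1 to 19 against 16273 of Tgif1 and 18976 of Tgif2. Smad3 peaks lay over 42.0% of pairs in the highest of 5 bins of Nanog tags and over 1.34% in the lowest. The sizes of the Smad3 and Tgif shifts are therefore not directly comparable. A Smad3 peak overlapped 838 pairs (13.2%), and these had medians of 116.5 Nanog and 71.5 Hdac1 tags, against 38 and 48 in the 5487 pairs without Smad3. Both were higher, Nanog 3.07 times and Hdac1 1.49 times. The median log2 ratio was 0.86 with Smad3 (quartiles 0.22 and 1.50) and -0.18 without (-0.75 and 0.50), a shift of 1.04 that was positive on 19 of 19 chromosomes and ranged from 0.67 to 1.51 over them. At least 2-fold toward Nanog were 43.8% of pairs with Smad3 (40.5 to 47.2) and 12.9% of pairs without (12.0 to 13.8), against 17.0% of all pairs. Among pairs with at least 50 Nanog tags the shares were 50.6% (46.9 to 54.2) and 36.0% (33.9 to 38.2). Toward Hdac1 they were 2.86% (1.93 to 4.23) and 16.7% (15.7 to 17.7), against 14.9% of all.

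The Smad3 shift was positive in all 5 bins of Hdac1 width, with 1.06, 1.13, 1.08, 1.15 and 1.45 from the narrowest to the widest. Over the same bins the Tgif2 shift was negative but smaller, at -0.04, -0.21, -0.06, -0.03 and -0.01, and that of Tgif1 changed sign, at 0.09, -0.08, 0.12, 0.18 and -0.02. Averaged over 5 bins of Nanog tags, which enter the ratio themselves, the Smad3 shift was -0.03, from bins between -0.24 and 0.16. The highest of these bins held 531 of the 838 pairs with Smad3 and had a shift of -0.02. Its median Nanog tags were still unequal, at 168 with Smad3 and 128.5 without. Among pairs without Smad3, the shift of both Tgif paralogs against neither was -0.38, beyond the -0.24 of all pairs. With Smad3 the medians of the Tgif classes lay close together, at 0.84 with both paralogs, 0.90 with Tgif1 alone, 0.94 with Tgif2 alone and 0.85 with neither, over 587, 89, 42 and 120 pairs. Among the 838 pairs with Smad3 its tags had a rank correlation of 0.56 with Nanog tags, 0.58 with Hdac1 tags and 0.23 with their ratio. From the lowest to the highest bin of Smad3 tags the median ratio was 0.58, 0.69, 0.84, 0.90 and 1.25. These Smad3 comparisons were added after the data were seen.

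**Figure D5:**
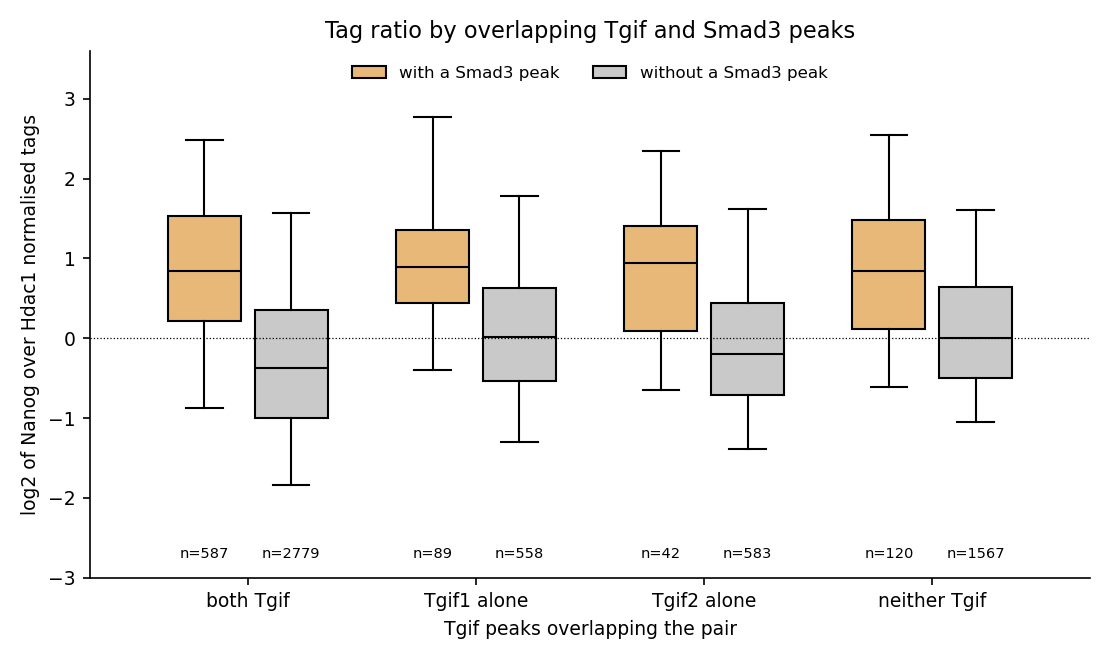
Log2 ratio of Nanog to Hdac1 normalised tags (vertical) for pairs with both Tgif paralogs, Tgif1 alone, Tgif2 alone or neither (horizontal), orange with and grey without a Smad3 peak. Boxes span the quartiles with the median, and whiskers the 5th to 95th percentile of pairs; medians with Smad3 lie between 0.84 and 0.94 in all 4 classes, and without it between -0.38 and 0.01.

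Named pairs were taken by rank and are given in mm9 coordinates of the Nanog peak, without gene names. The 8 pairs farthest toward Nanog, among those with at least 50 tags in both peaks, combined Nanog peaks of 220 to 487 tags per kb with Hdac1 peaks of 53 to 85 tags in all. The first, chr1:134367357-134369535, had 815 Nanog tags over 2178 bp and 76 Hdac1 tags over 1127 bp, a 12.0-fold ratio (exact interval 9.50 to 15.4). Tgif1, Tgif2 and Smad3 peaks with 129, 129 and 86 tags lay over it. At chr1:136430334-136433089 the tags were 786 for Nanog and 85 for Hdac1, a 10.4-fold ratio (8.28 to 13.1). At chr2:33435369-33438040 they were 588 and 65, a 10.1-fold ratio (7.84 to 13.3), with both Tgif paralogs and without Smad3. At chr17:35640568-35642499 they were 586 and 72, a 9.12-fold ratio (7.13 to 11.8), and the overlapping Tgif1 peak held 207 tags, the most of Tgif1 among the 8.

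The other pairs of this set ranged from 8.95-fold down to 8.36-fold. They were chr5:73610681-73611681 with 487 Nanog and 61 Hdac1 tags and no Tgif2 peak, chr2:44380548-44381568 with 461 and 58 tags and neither a Tgif1 nor a Smad3 peak, chr10:21708022-21709042 with 420 and 53, and chr3:121847730-121849016 with 410 and 55. Their summits lay 2 to 39 bp apart. Of the 8, 7 carried Tgif1, 7 Tgif2 and 6 Smad3, and the Nanog peak was the wider one in 7. Over all pairs the Nanog peak was the wider one in 18.0%. In the highest bin of Nanog tags 77.4% of pairs carried Tgif1, 73.9% Tgif2 and 42.0% Smad3.

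Of the 8 pairs farthest toward Hdac1 among those with at least 50 tags in both peaks, all carried both Tgif paralogs and 2 carried Smad3. In all 8 the Hdac1 peak was the wider one. The lowest log2 ratio here was -2.21, against -3.53 over all pairs. With at least 50 Nanog tags such a lean needs many Hdac1 tags. These 8 Hdac1 peaks held 141 to 336, against quartiles of 37 and 70 over all pairs. Over all pairs 53.2% carried both paralogs and 13.2% Smad3, and the Nanog peak was the wider one in 18.0%; among the pairs in the highest bin of Hdac1 tags 90.8% carried Tgif1 and 90.5% Tgif2. The first, chr4:133574613-133575617, had 50 Nanog tags over 1004 bp and 260 Hdac1 tags over 4326 bp, so that Hdac1 was 4.64-fold higher (exact interval 3.42 to 6.41), and the Tgif1 and Tgif2 peaks there held 350 and 298 tags. At chr11:98825651-98826385 there were 64 Nanog tags over 734 bp and 277 Hdac1 tags over 4827 bp, with Hdac1 3.86-fold higher (2.93 to 5.15). Per kb these were 87.2 Nanog and 57.4 Hdac1 tags, so the second pair leaned toward Hdac1 only over the whole peaks. The same held for chr7:20401290-20402007 with 79.5 and 56.1, chr4:145105657-145106633 with 88.1 and 85.8, and chr14:61254471-61255318 with 59.0 and 47.4. It also held for chr4:126142902-126143607 with 87.9 and 60.5. At chr4:133574613-133575617, chr17:3083654-3084816 and chr1:74443161-74444479 Hdac1 was the higher one per kb too.

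One of the 8 had a dense Hdac1 peak that was the narrowest of the set, though still above the upper quartile of 1290 bp over all pairs. At chr17:3083654-3084816 there were 95 Nanog tags over 1162 bp and 336 Hdac1 tags over 1375 bp, or 81.8 and 244 tags per kb, with Hdac1 3.15-fold higher (2.51 to 4.0). Its Tgif1 peak held 1034 tags and its Tgif2 peak 609, and the Nanog fold enrichment was only 6.88. The median Hdac1 density over all pairs was 49.8 tags per kb. Whether the tags of this dense stretch come from binding was not tested. The last 5 were chr7:20401290-20402007 with 57 Nanog and 177 Hdac1 tags, chr4:145105657-145106633 with 86 and 262, chr14:61254471-61255318 with 50 and 152, chr4:126142902-126143607 with 62 and 174, and chr1:74443161-74444479 with 51 and 141. Hdac1 was 2.77-fold to 2.47-fold higher at these, over Hdac1 peaks of 2558 to 3209 bp.

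The 8 strongest pairs, by the geometric mean of both values, all carried both Tgif paralogs, and 7 carried Smad3. Over all pairs 53.2% carried both paralogs and 13.2% Smad3. In the highest bin of Hdac1 tags 90.8% carried Tgif1 and 90.5% Tgif2, and in that of Nanog tags 42.0% carried Smad3. Hdac1 fold enrichment at the 8 strongest pairs ran from 5.94 to 17.7, against a median of 12.1 over all pairs. Nanog tags ranged more widely than Hdac1 tags, so the ranking by geometric mean favours high Nanog values. Over all pairs the Nanog value was the higher one in 47.4% and the Nanog peak the wider one in 18.0%. Among the strongest pairs the Nanog value was the higher one in 8 of 8 and the Hdac1 peak the wider one in 8 of 8. The first, chr18:40467610-40468068, stood apart with 1349 Nanog tags over 458 bp and 748 Hdac1 tags over 933 bp, or 2945 and 802 tags per kb, against medians of 59.6 and 49.8 over all pairs. Tgif1, Tgif2 and Smad3 held 1365, 647 and 539 tags there, and the fold enrichments were 28.9 for Nanog and 17.7 for Hdac1. Whether so many tags in so short a stretch come from binding was not tested; leaving out the 1% of pairs with the most tags in either list left the shifts with Tgif1, Tgif2 and Smad3 at -0.13, -0.25 and 0.98.

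The strongest pairs after it were broad. They were chr1:37042205-37045666 with 1032 Nanog and 245 Hdac1 tags, a 4.72-fold ratio (4.10 to 5.45), and chr1:120971289-120973974 with 815 and 267 tags and both summits at the same base. At chr1:154942162-154944763 the tags were 314 and 321, a 1.10-fold ratio whose interval (0.936 to 1.29) spans equality. It was also among the 3 strong pairs closest to the median ratio and carried no Smad3 peak. The rest were chr1:121200510-121202978 with 445 and 220 tags, chr9:45157086-45158552 with 499 and 193, chr9:110849469-110851119 with 572 and 166, and chr2:51926267-51928496 with 470 and 195. Their ratios ran from 2.27-fold to 3.86-fold. Of the 8 strongest pairs, 4 were on chromosome 1, which held 9.03% of all pairs. The other strong pairs closest to the median ratio were chr14:6094468-6095424 with 207 Nanog and 218 Hdac1 tags and chr13:66815952-66817412 with 175 and 240, both with both Tgif paralogs and without Smad3.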

How the data were processed

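Nanog, Hdac1, Tgif1, Tgif2 and Smad3 lists were used, 1 each; the library labelled as BirA control was left out. BWA (0.5.9-r16), MACS and the build mm9 are listed, without their roles, per the submitters' processing notes. Control, threshold and library depth are not given in the sources used here. The deposited lists have no header: the count of tags and the fold enrichment, a ratio to background, were read from the values. Other deposited columns give start, end and summit positions, printed as deposited. Sites are given without genes or sequence, since annotation of mm9 was not used here.

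Pairs were mutually nearest summits at most 200 bp apart on chromosomes 1 to 19, with tags divided by each list's tag sum. Share intervals are 95% Wilson intervals, and those of single ratios are exact binomial (Clopper-Pearson) intervals on the tags. Named pairs were the 8 highest and 8 lowest ratios with at least 50 tags in both peaks, the 8 strongest, and the 3 nearest the median ratio among the 100 strongest. Members, lists and comparisons were chosen with earlier results of these data known. Pairing and overlaps were tested on simulated data, and 0 of 9 overlap vectors differed from bedtools 2.31.1. Python 3.11.15, NumPy 2.4.6, pandas 2.3.3, SciPy 1.17.1 and matplotlib 3.10.9 were used.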

Additional observations from a re-analysis of the deposited data

How the results depend on the processing

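Among the alternative values, 109 lay within the 95% sampling range over pairs of the value reported (for the number of pairs, within a fixed factor), 63 lay outside it and 11 had the opposite sign; the cause was not tested, except that fewer or other pairs enter by construction where a limit was changed. No paired analysis was possible because each factor had 1 library. With the tags of paired peaks as divisor the median log2 ratio was -0.41, with 10.6% of pairs at least 2-fold toward Nanog and 26.1% toward Hdac1. Summits within 50 bp left 3825 pairs, a median of 0.00266, 17.9% and 13.3%; within 100 bp the median was -0.028, and within 500 bp -0.10 with 15.96% toward Hdac1. Without further peaks of the other list 13.4% leaned to Hdac1 and the width ratio was -0.40. At least 50 tags in both peaks left 1805 pairs, a median of 0.52, 28.9% and 1.72%, a rank correlation of 0.24, a width ratio of -0.31 and shifts of -0.042 (Tgif1), -0.13 (Tgif2), -0.088 (both against neither) and 0.53 (Smad3). Peaks at or above the list median of tags left 2843 pairs, a median of 0.14, 20.5% and 7.81%, a correlation of 0.26 and shifts of -0.026, -0.16, -0.086 and 0.90. Both of these cuts act on the tags that enter the ratio, so they limit which leans can occur. Per bp the median was 0.42, the shares 24.9% and 0.40%, the correlation 0.42 and the shifts -0.0066, -0.092, -0.061 and 0.79. By fold enrichment 18.5% leaned to Nanog, the correlation was 0.41, and the shifts with Tgif1, Tgif2 and both were 0.070, -0.048 and 0.014. With summits near the middle of the pair these were 0.030, -0.030 and 0, and without Smad3 pairs -0.27, -0.34 and -0.38. Within bins of mean log2 tags, which hold both terms of the ratio, they were -0.53, -0.58 and -0.71, with 0.28 for Smad3; within bins of span width -0.028, -0.17 and -0.12, with 1.13.

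The bins that follow were chosen after the data were seen. Within bins of Nanog tags the shifts with Tgif1, Tgif2, both and Smad3 were -0.44, -0.45, -0.55 and -0.034, and Tgif1 alone against Tgif2 alone gave 0.065; its other alternatives gave 0.14 to 0.34. Within bins of Hdac1 tags the shift with Tgif1 was 0.012, with both -0.12 and with Smad3 1.21. Within bins of Hdac1 width the 4 shifts with Tgif1, Tgif2, both and Smad3 were 0.057, -0.073, 0.0069 and 1.17, and per bp within bins of span width -0.025, -0.11, -0.068 and 0.74.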

Other observations

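Chromosomes differed in the balance of their pairs. The median log2 ratio of Nanog to Hdac1 tags ran from -0.28 on chromosome 11 (513 pairs) to 0.16 on chromosome 16 (177 pairs). Chromosomes 11, 17 and 7, the lowest, had both Tgif paralogs on 60.6%, 58.6% and 56.3% of their pairs and median width ratios of -0.55, -0.47 and -0.54. Chromosomes 16, 3 and 14, the highest, had both on 44.1%, 47.8% and 55.4% and width ratios of -0.35, -0.39 and -0.44. In between the order was not strict: chromosome 1 had both paralogs on 56.2% of pairs and a tag ratio of -0.01. Chromosome 19 had both on 51.4% and a tag ratio of -0.14. The rank correlation of tags ranged from 0.23 on chromosome 15 to 0.47 on chromosome 13. Chromosome 1 gave 571 pairs, which held 49.1% of its Hdac1 peaks, the largest share of the 19, and 35.4% of its Nanog peaks.

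An Hdac1 peak overlapped more than 1 Nanog peak in 403 pairs (6.37%), with up to 3 in 1 peak, whereas a Nanog peak overlapped more than 1 Hdac1 peak in 61 (0.96%). The Hdac1 peaks with several Nanog peaks had a median width of 1697 bp and 88 tags, against 952 bp and 49 tags for the others, and a median log2 ratio of -0.68 against -0.02. The ratio counts only the mutually nearest of these Nanog peaks. Such pairs made up 2.70% of those at least 2-fold toward Nanog and 15.8% of those at least 2-fold toward Hdac1. Pairs with the closest summits leaned slightly more toward Nanog: the median ratio was 0.06 in the closest of 5 bins of summit distance and -0.23 in the farthest, with 48 and 38 Nanog tags and 52 and 50 Hdac1 tags.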
